A study of Mus musculus with 12 samples.

Results

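The heat shock response and the unfolded protein response were described here by 44 genes in the cortex of aged E4FAD mice treated with docosapentaenoic acid (DPAn-6). The genes were taken by symbol through the GRCm38 annotation of the mouse genome, and all 44 were found among the 50563 genes of the count table. The heat shock arm held 20 genes for chaperones of the cytosol and the mitochondria and their regulators. The endoplasmic reticulum (ER) stress arm held 24 genes for the sensors, the transcription factors, the chaperones and the degradation factors of the ER. All 44 genes passed the filter on low counts.

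RNA-Seq was measured in 12 mice, with 1 library of poly(A)-selected RNA per mouse. All mice were of the strain E4FAD with the genotype APOE4+/+, 5FAD-/+, so CTRL and DPAn-6 mice alike carried human APOE4 in place of the mouse gene and 1 copy of the transgenes with familial Alzheimer's disease mutations, on a C57/BL6 background. The CTRL group held 7 mice, 2 aged 12 months and 5 aged 14 months, and they received vehicle with the antioxidants alpha-tocopherol and palmitoyl ascorbic acid by gavage. The DPAn-6 group held 5 mice, 2 aged 12 months and 3 aged 14 months, and they received DPAn-6, an omega-6 fatty acid, daily by gavage. Both groups held males and females, and no source used here gave the sex of single mice. There was no group without the transgenes, so the level of these genes in healthy cortex was not measured.

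Heat shock proteins are chaperones that bind unfolded protein chains, keep them from aggregating and help them to fold. HSP70 and HSP90 do this with the help of co-chaperones such as the HSP40 family, and the transcription factor HSF1 induces many of their genes when misfolded proteins build up in the cytosol. Misfolded protein inside the ER is instead sensed by IRE1, PERK and ATF6, which act through the transcription factors XBP1, ATF4 and cleaved ATF6 to raise ER chaperones and degradation factors. Both responses have been studied in Alzheimer's disease, in which misfolded amyloid-beta and tau accumulate.

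Total counts per mouse lay between 15208803 and 26520251. CTRL replicate 3, a 14-month-old mouse, stood apart from the other libraries. The standard deviation over genes of its trend with transcript length and GC content, fitted against the mean of all libraries, was 0.346 on the log2 scale, against 0.020 to 0.134 in the other 11. It was kept in the results, and the main counts are also given without it. All 12 neuronal markers listed passed the filter on low counts. In bulk tissue, fewer cells of a type and less RNA per cell cannot be told apart.

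The heat shock arm was mostly higher and the ER stress arm was divided. Of the 20 heat shock members, 17 had a positive and 3 a negative log2 fold change of DPAn-6 against CTRL, with a median of 0.17, while the median over all 15688 genes tested was −0.0047 and 48.7% of them were positive and 51.3% negative. Of the 24 ER stress members, 13 were positive and 11 negative, with a median of 0.064, and with library totals in place of TMM scaling 17 were positive and 7 negative, where 54.3% of all genes were positive. Without CTRL replicate 3 the counts were 17 and 3 in the heat shock arm and 16 and 8 in the ER stress arm, where 50% of all genes were positive. In the heat shock arm, 1 gene rose (Hsph1) and 1 fell (Hspa2) at an adjusted p below 0.05 in edgeR's quasi-likelihood test, beside 0.408% of all genes that rose and 1.14% that fell. In the ER stress arm no gene passed (0 of 24, beside 1.55% of all genes in either direction). DESeq2 called 1 of these 24 (Dnajc3, lower), beside 4.44% of all genes, limma-voom called 0, beside 1.43%, and 3 had an unadjusted p below 0.05 in edgeR.

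At an unadjusted p below 0.05, the heat shock arm held 5 higher members (Hsph1, Dnajb5, Hsp90ab1, Hsp90aa1 and Dnaja1) and 1 lower member (Hspa2), and the ER stress arm held 2 higher (Pdia6 and Xbp1) and 1 lower (Dnajc3). Over all genes, 5.51% were higher and 9.02% lower at this level, 14.5% in all. In log2 CPM on library totals, the groups did not overlap for 3 higher heat shock members (Hsph1, Dnajb5 and Hsp90ab1) and 1 lower (Hspa2). Nor did they for the ER stress members Sel1l (higher) and Dnajc3 (lower). Of all genes, 1.73% were without overlap and higher and 1.49% without overlap and lower, 3.22% in all. In TMM-scaled log2 CPM, the groups overlapped for Hsp90ab1 and Sel1l. Group labels were also permuted over the mice (exact two-sided test of the difference of means in log2 CPM on library totals). By this test 7 members of each arm had an unadjusted p below 0.05, 14 of 44 in all, beside 15.8% of all genes. In TMM-scaled log2 CPM, the permutation p of Hspa4 (0.0859), Hspa5 (0.0859) and Pdia3 (0.0934) was above 0.05, and the rest of the 14 stayed below it. Without CTRL replicate 3, 6 heat shock members were without overlap and higher and 1 lower, and 4 ER stress members higher and 1 lower, beside 2.77% and 2.5% of all genes, and 13 heat shock and 9 ER stress members had a permutation p below 0.05, beside 21.9%.

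**Figure D1:**
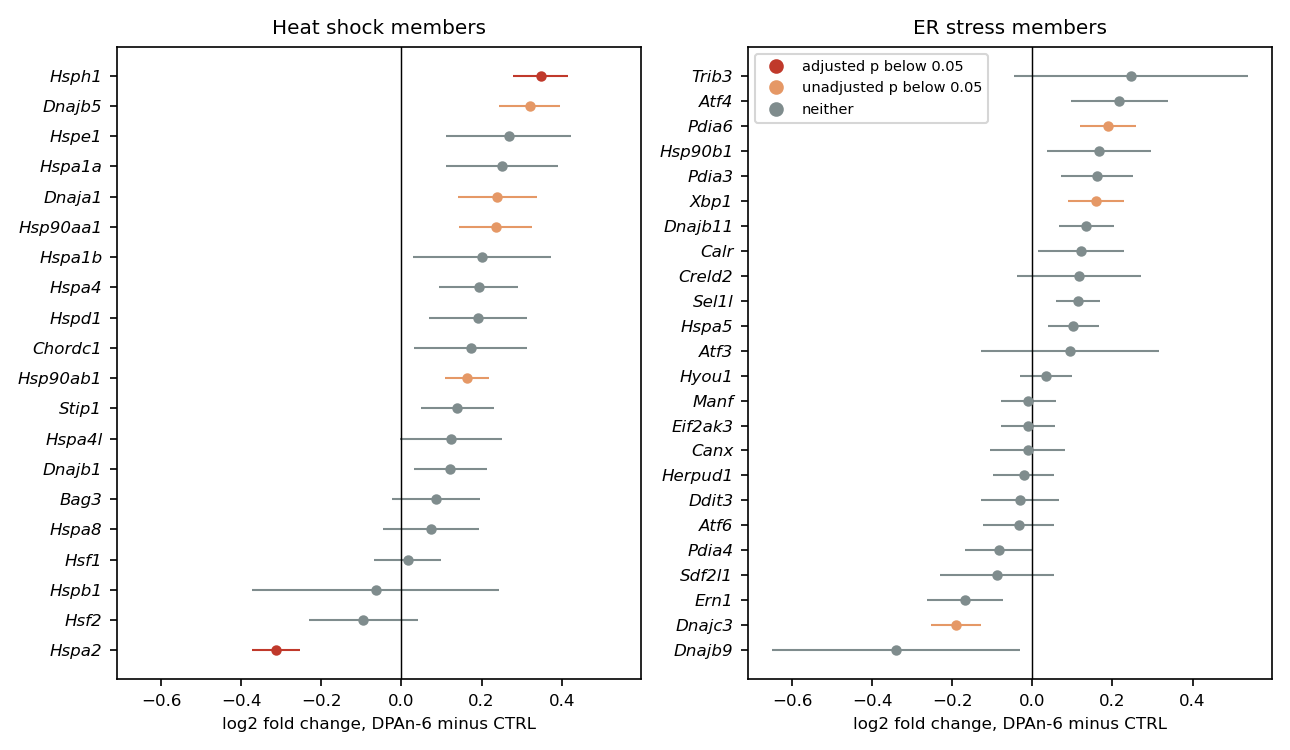
Log2 fold change of DPAn-6 minus CTRL (x axis) with its standard error (bars) for the 20 heat shock members (left) and the 24 ER stress members (right), 7 CTRL against 5 DPAn-6 mice. Points in the heat shock panel lie right of 0 for 17 genes, with Hsph1 at 0.35 at the top and Hspa2 at −0.31 at the bottom as the 2 genes with an adjusted p below 0.05, while the ER stress points lie on both sides of 0.

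Promoters are shown for the members because both responses act through short DNA elements in their target genes. RefSeq start sites of GRCm38.p6 gave a promoter, taken as 250 bases before to 50 after a start, for 37 of the 44 members (none for Hsp90aa1, Hsp90ab1, Hspa8, Hsf1, Atf6, Hyou1 and Manf). The heat shock element was searched on both strands as 3 units, GAA and its reverse complement TTC in turn, with any 2 bases between units. It was present in 4 of 16 heat shock members and in 0 of 21 ER stress members, beside 0.662% of all 27025 genes with a promoter. The windows below are written on the strand of the gene, with the elements in capitals, and Hspd1 and Hspe1 lie head to head and share the same element.
Hsph1, chr5:149636280-149636308, minus strand: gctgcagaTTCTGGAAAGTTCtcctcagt
Hspe1, chr1:55088054-55088081, plus strand: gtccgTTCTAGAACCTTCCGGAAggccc
Hspd1, chr1:55088054-55088081, minus strand: gggccTTCCGGAAGGTTCTAGAAcggac
Chordc1, chr9:18292260-18292288, plus strand: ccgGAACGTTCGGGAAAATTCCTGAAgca
The Hsph1 element began 16 bases after the start listed, and Chordc1 held 3 and the Hspd1 and Hspe1 promoter 2 overlapping matches. The 4 genes had log2 fold changes of 0.35 (Hsph1), 0.27 (Hspe1), 0.19 (Hspd1) and 0.17 (Chordc1), and only Hsph1 among them passed the test. No match was found in the promoters of the other heat shock members that had one. Among them were Hspa2, Dnajb5, Hspa1a, Hspa1b, Bag3 and Dnajb1, a classical target of HSF1. This says only that the letters were not in those promoters.

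Hsph1 encodes HSP105 (HSP110 family), which exchanges the nucleotide on HSP70 and holds unfolded chains. It lay between 7.91 and 8.2 log2 CPM (counts scaled to the library total) in CTRL mice (median 8.08), and DPAn-6 replicates 1 to 5 had 8.44, 8.41, 8.53, 8.40 and 8.43. Every DPAn-6 mouse was above every CTRL mouse. Hsph1 rose 1.27-fold, with a log2 fold change of 0.35 (standard error 0.069, edgeR p = 0.000142, adjusted p = 0.0214 over all genes tested), and its exact permutation p was 0.00126, the smallest these groups allow. The log2 fold change was positive in 24 of 24 alternative settings (0.26 to 0.41), and the adjusted p was below 0.05 in 16 of them. It was above 0.05 without DPAn-6 replicate 1 (0.0593), 2 (0.0507), 3 (0.0898), 4 (0.0537) or 5 (0.0608), with the replicate number as a block (0.113), among 14-month mice alone (0.288) and with Ttr, the leading choroid plexus gene, as covariate (0.453, log2 fold change 0.26), and without CTRL replicate 3 it was 0.00231.

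Hspa2 encodes an HSP70 protein that is best known from spermatogenesis and is also expressed in brain. CTRL mice had 5.82 to 6.02 log2 CPM (median 5.85), and DPAn-6 mice had 5.71, 5.53, 5.49, 5.57 and 5.65, so that all 5 DPAn-6 mice lay below all 7 CTRL mice. On the log2 scale it fell by 0.31 (standard error 0.061, edgeR p = 0.000116, adjusted p = 0.0193, exact permutation p = 0.00126), the only decrease that passed the test in either arm. The sign was negative in 24 of 24 alternatives and the adjusted p below 0.05 in 15. It was above 0.05 without DPAn-6 replicate 2 (0.0671), 3 (0.0916), 4 (0.0753) or 5 (0.057), without a filter on low counts (0.0779), with the replicate block (0.189), with that block and each library's trend with length and GC content removed (0.107), among 14-month mice alone (0.399) and when Ttr was a covariate (0.227).

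The other HSP70 and HSP110 genes did not pass the test. Hspa1a and Hspa1b encode the inducible HSP70 that is nearly absent without stress, and both were low here, at 1.41 and 1.65 CPM per kilobase of exon in CTRL against 62.2 for Hspa8, the constitutive HSC70. Hspa1a had 1.33 to 2.28 log2 CPM in CTRL (median 2.15) and 2.42, 2.08, 2.31, 2.42 and 2.48 in DPAn-6 mice, with a log2 fold change of 0.25 (standard error 0.14, edgeR adjusted p = 0.444). Hspa1b had 1.60 to 2.62 (median 2.14) and 2.31, 2.28, 2.23, 2.91 and 2.40, with 0.20 (standard error 0.17, edgeR adjusted p = 0.666). The groups overlapped in both genes, and CTRL replicate 3 was the lowest mouse in each. These neighbouring genes on chromosome 17 are near copies. Of the 50-base words of the longest Hspa1a transcript, 58.8% also occur in Hspa1b, so reads from these words could be dropped. Hspa4 (0.19, edgeR adjusted p = 0.395), Hspa4l (0.12, adjusted p = 0.735) and Hspa8 (0.075, adjusted p = 0.843) overlapped between the groups, and 52.7% of the Hspa8 words occur in other genes, mostly processed copies.

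HSP90 was the most abundant chaperone per length. Hsp90ab1, the constitutive HSP90 beta, had 442 CPM per kilobase of exon in CTRL, and the next members were Calr (115) and Stip1 (73.6). On the log2 CPM scale Hsp90ab1 lay at 10.26 to 10.47 in CTRL (median 10.37) and at 10.59, 10.49, 10.56, 10.54 and 10.62 in DPAn-6 mice. All DPAn-6 values were above all CTRL values on this scale, with a log2 fold change of 0.16 (standard error 0.055, adjusted p = 0.164 in edgeR, exact permutation p = 0.00253). With TMM scaling, CTRL replicate 3 (10.53) lay above DPAn-6 replicate 2 (10.48). Hsp90aa1, the inducible HSP90 alpha, had 6.59 to 7.23 log2 CPM in CTRL (median 6.97) and 7.20, 7.14, 7.23, 7.31 and 7.22 in DPAn-6 mice. Only CTRL replicate 3 lay within the DPAn-6 range, and the log2 fold change was 0.23 (standard error 0.091, adjusted p = 0.239 in edgeR, exact permutation p = 0.0126). For Hsp90aa1, 58.5% of the words occur in other genes. Of the co-chaperones, Stip1, which hands client proteins from HSP70 to HSP90, had 0.14 (edgeR adjusted p = 0.537) and Chordc1 had 0.17 (adjusted p = 0.644), and in both CTRL replicate 3 was the highest of all 12 mice.

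HSP40 proteins deliver unfolded chains to HSP70 and start its ATPase. Dnajb5 had 7.0 to 7.15 log2 CPM in CTRL (median 7.08) and 7.73, 7.32, 7.44, 7.26 and 7.31 in DPAn-6 mice. Its groups did not overlap and DPAn-6 replicate 1 was the highest mouse. It had a log2 fold change of 0.32 (standard error 0.076, edgeR p = 0.000803, exact permutation p = 0.00126), and the adjusted p of 0.0514 missed the threshold. The adjusted p was below 0.05 in 5 of 24 alternatives, among them DESeq2 (0.00514) and the fit without CTRL replicate 3 (0.0156), and the log2 fold change was 0.24 without DPAn-6 replicate 1. Dnaja1 had 5.49 to 6.09 in CTRL (median 5.81) and 6.03, 6.10, 6.06, 6.26 and 6.07 in DPAn-6, with a log2 fold change of 0.24 (standard error 0.099, adjusted p = 0.276 in edgeR, exact permutation p = 0.0328). CTRL replicates 3 and 4 lay within its DPAn-6 range, and 28.8% of its words occur in other genes. Dnajb1, a classical target of HSF1, had 0.12 (edgeR adjusted p = 0.605).

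**Figure D2:**
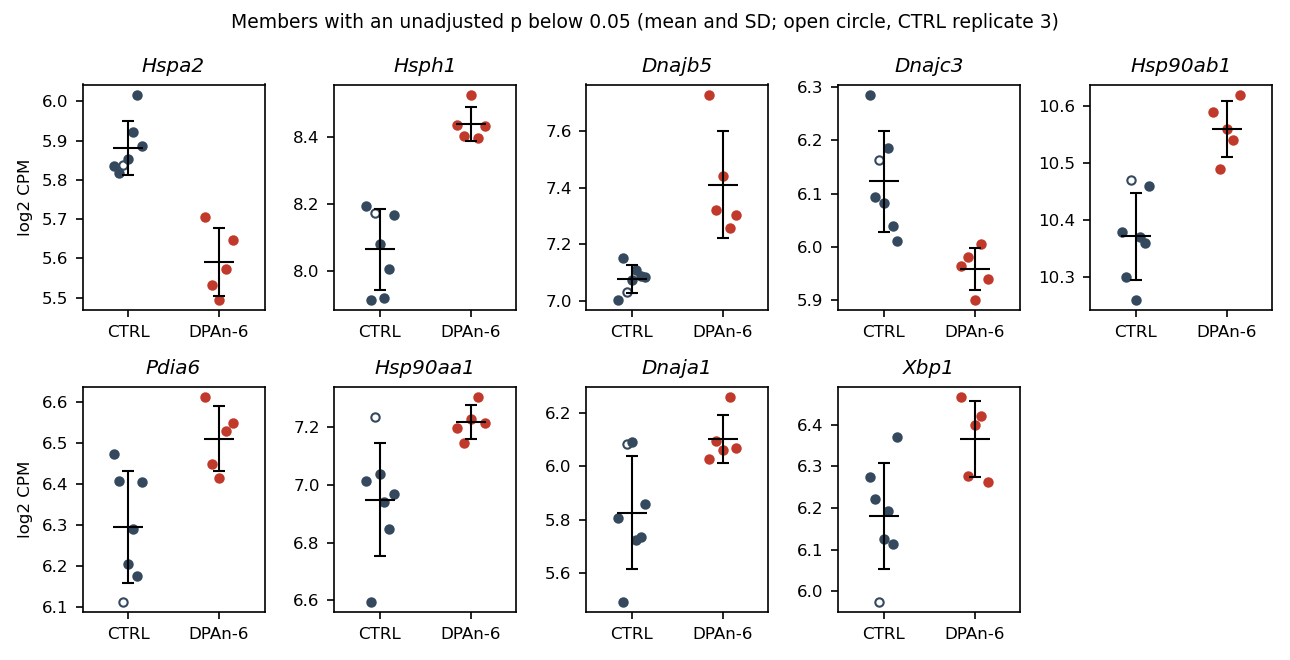
Log2 CPM (y axis, a separate range for each gene) of the 9 members with an unadjusted p below 0.05 in every CTRL (7) and DPAn-6 (5) mouse, with the mean and SD. Open circles mark CTRL replicate 3, which lies within the DPAn-6 range for Hsp90aa1 (7.23) and Dnaja1 (6.08). On these library totals Hspa2, Hsph1, Dnajb5, Dnajc3 and Hsp90ab1 show no overlap, but Hsp90ab1 overlaps with TMM scaling.

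The remaining heat shock members had no unadjusted p below 0.05. The mitochondrial chaperonin genes Hspd1 (HSP60) and Hspe1 (HSP10) had log2 fold changes of 0.19 (edgeR adjusted p = 0.526) and 0.27 (adjusted p = 0.465). Their exons overlap on opposite strands. No source used here gave the strand column that was counted, so the handling of reads in the overlap is not known. Of the Hspd1 words 44.8% occur in other genes, mostly a pseudogene, and of the Hspb1 words 51.6%. Hsf1, the master regulator of the response, had 4.84 to 5.29 log2 CPM in CTRL (median 5.04) and 5.17, 5.10, 5.03, 5.05 and 5.20 in DPAn-6 mice. The DPAn-6 values lay inside the CTRL range, with a log2 fold change of 0.016 (standard error 0.084, edgeR adjusted p = 0.962). Hsf2 (−0.095, edgeR adjusted p = 0.82), the autophagy co-chaperone Bag3 (0.087, adjusted p = 0.79) and the small heat shock protein gene Hspb1 (−0.064, adjusted p = 0.956, 4 to 28 counts per mouse) overlapped as well. The activity of HSF1 is set by its trimers and its phosphorylation, which mRNA does not show.

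The count of heat shock calls depended on CTRL replicate 3. Without it, 8 members rose (Hsph1, Dnajb5, Hsp90ab1, Hsp90aa1, Stip1, Hspd1, Hspa4 and Dnaja1) and Hspa2 fell at an adjusted p below 0.05, 9 of 20, beside 2.12% of all genes that rose and 3.98% that fell in that fit (6.10% in all). The values of Hsp90aa1 then were 0.30 (edgeR adjusted p = 0.0174), those of Hspd1 0.30 (0.0291), those of Hspa4 0.26 (0.0409) and those of Stip1 0.22 (0.0205). With all 12 mice and the trend of each library with length and GC content removed, 5 members rose (Hsph1, Dnajb5, Hsp90aa1, Dnaja1 and Hspa4l) and Hspa2 fell, beside 1.56% and 1.72% of all genes (3.28% in all). With both changes 10 rose, the 8 above with Hspa4l and Chordc1, and Hspa2 fell, beside 6.11% and 3.84% (9.95% in all). At an unadjusted p below 0.05 the count was 12 of 20 without CTRL replicate 3 (beside 23.1% of all genes), 10 with the trend removed (19.5%) and 13 with both (26.4%). Without DPAn-6 replicate 1 there was 1 call (Hspa2), beside 0.656% of all genes, and there were 0 without replicate 2, 3, 4 or 5, beside 0.781%, 0.403%, 0.586% and 0.681%, so the calls over all genes fell as well. The median log2 fold change of the 20 members moved less, from 0.13 to 0.22 over the 24 alternatives.

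**Figure D3:**
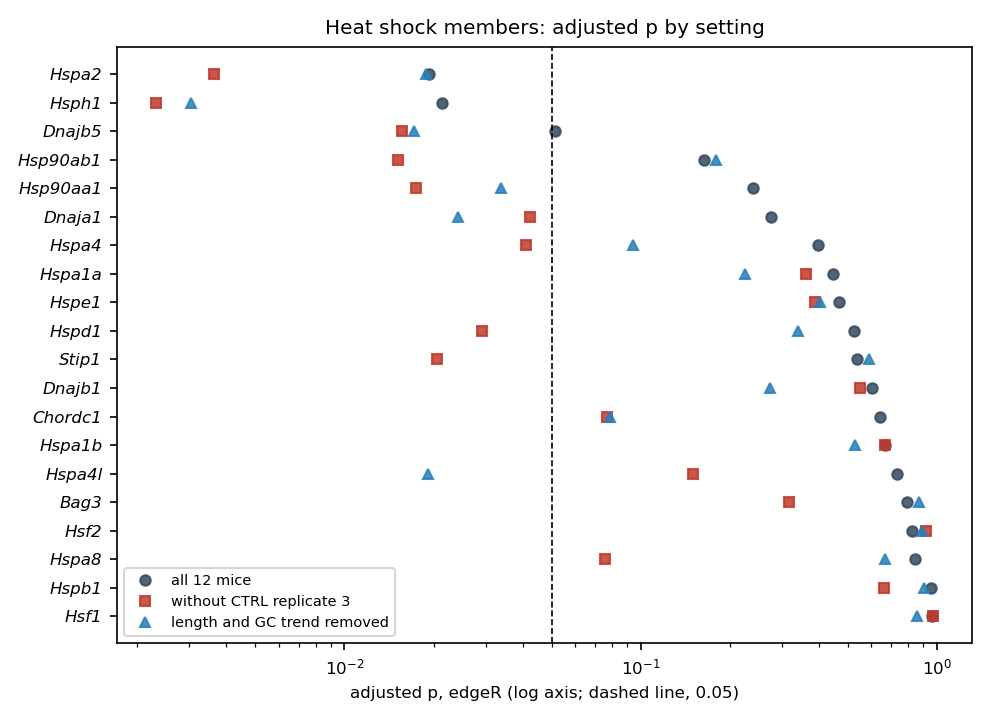
Adjusted p in edgeR (x axis, log scale) of the 20 heat shock members with all 12 mice, without CTRL replicate 3, and after removal of each library's trend with length and GC content. With all mice 2 genes lie left of the dashed line at 0.05, without CTRL replicate 3 there are 9, and with the trend removed 6.

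In the ER stress arm, the element of ATF6 and XBP1 targets was searched as CCAAT and CCACG with any 9 bases between (ERSE), and its second form as ATTGG, any 1 base and CCACG (ERSE-II), on both strands. ERSE was present in 7 of 21 ER stress members with a promoter (33.3%), in 0 of 16 heat shock members and in 0.137% of all genes with a promoter. ERSE-II was present in 2 of 21 (9.52%), beside 0.0444%. The windows are written on the strand that reads CCAAT or ATTGG first, with the element in capitals, and show the genes whose values are given next.
Hspa5, chr2:34772020-34772048, ERSE: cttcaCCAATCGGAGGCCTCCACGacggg
Pdia6, chr12:17266486-17266514, ERSE: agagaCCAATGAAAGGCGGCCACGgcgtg
Dnajc3, chr14:118937822-118937850, ERSE: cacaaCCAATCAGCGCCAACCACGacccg
Calr, chr8:84847070-84847098, ERSE: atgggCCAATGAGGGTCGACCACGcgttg
Dnajb11, chr16:22857843-22857871, ERSE-II: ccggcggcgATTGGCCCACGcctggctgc
Herpud1, chr8:94386368-94386396, ERSE-II: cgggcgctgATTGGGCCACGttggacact
The Hspa5 element lay 65 to 47 bases before its start, that of Pdia6 98 to 80 and that of Dnajc3 105 to 87. The genes with ERSE did not move one way: the log2 fold changes were 0.19 for Pdia6, 0.17 for Hsp90b1 (2 elements), 0.12 for Calr and Creld2, 0.10 for Hspa5, −0.012 for Canx and −0.19 for Dnajc3. The shared CCACG alone was in 15 of these 21 members but also in 35.5% of all genes with a promoter. The ATF4 element, TGATG, any base and AAT or TGATGCAAC, was in Herpud1 only (1.28% of all genes with a promoter), and the cAMP response element TGACGTCA was in no member (2.03%).

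Hspa5 encodes BiP, the HSP70 of the ER and the common readout of the unfolded protein response. It had 7.52 to 7.82 log2 CPM in CTRL (median 7.71) and 7.80, 7.76, 7.75, 7.94 and 7.80 in DPAn-6 mice. The groups overlapped, with a log2 fold change of 0.10 (standard error 0.064, adjusted p = 0.508 in edgeR, exact permutation p = 0.0442). Pdia6, a disulfide isomerase, had 6.11 to 6.47 in CTRL (median 6.29) and 6.61, 6.45, 6.42, 6.53 and 6.55 in DPAn-6, with 0.19 (standard error 0.071, adjusted p = 0.223 in edgeR, exact permutation p = 0.0126). The lowest of its CTRL mice was replicate 3. Dnajc3, the HSP40 p58IPK that also inhibits PERK, had 6.01 to 6.29 in CTRL (median 6.09) and 5.97, 5.98, 5.90, 6.0 and 5.94 in DPAn-6 mice. All 5 DPAn-6 mice lay below all CTRL mice, with a log2 fold change of −0.19 (standard error 0.063, adjusted p = 0.16 in edgeR, exact permutation p = 0.00505).

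The lectin chaperones Calr (0.12, edgeR adjusted p = 0.68) and Canx (−0.012, adjusted p = 0.974), the ER HSP90 gene Hsp90b1 (0.17, adjusted p = 0.622) and the isomerases Pdia3 (0.16, adjusted p = 0.439) and Pdia4 (−0.083, adjusted p = 0.731) overlapped between the groups. In Hsp90b1, Calr and Canx CTRL replicate 3 was the highest of all mice. Without that mouse Hsp90b1 (0.30, adjusted p = 0.00737), Calr (0.22, 0.0332) and Pdia3 (0.23, 0.0292) rose in edgeR, 3 of 24 beside 2.12% of all genes. With the trend removed and all mice kept, no ER stress member was called, and 7 had an unadjusted p below 0.05, beside 19.5% of all genes. Hyou1, the nucleotide exchange factor of BiP, had 0.034 (edgeR adjusted p = 0.868), and the smaller ER factors Manf (−0.010, adjusted p = 0.97), Sdf2l1 (−0.088, adjusted p = 0.844) and Creld2 (0.12, adjusted p = 0.804) lay near 0 or were widely spread.

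Of the ER HSP40 genes beside Dnajc3, Dnajb11 had 0.13 (p = 0.0649 in edgeR, exact permutation p = 0.00505). Dnajb9, a target of XBP1, had −0.34 with a standard error of 0.31 (edgeR adjusted p = 0.691). That value came from CTRL replicate 3, which had 6.30 log2 CPM where the other 6 CTRL mice had at most 5.28, and without it the log2 fold change was 0.040. The degradation factors were Sel1l, the partner of the ubiquitin ligase HRD1, and Herpud1. On library totals, Sel1l was higher in all 5 DPAn-6 mice (7.95 to 8.03) than in all 7 CTRL mice (7.73 to 7.93). With TMM scaling, CTRL replicate 4 (7.93) lay just above DPAn-6 replicate 1 (7.926). Sel1l had a log2 fold change of 0.11 (standard error 0.055, edgeR p = 0.058, exact permutation p = 0.00631). Herpud1 had −0.022 (edgeR adjusted p = 0.936).

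The 3 sensors had negative values that did not pass the test: Ern1 (IRE1 alpha) had −0.17 (edgeR adjusted p = 0.449), Atf6 −0.035 (adjusted p = 0.909) and Eif2ak3 (PERK) −0.011 (adjusted p = 0.966). Without TMM scaling the value of Eif2ak3 was positive (0.012), and those of Atf6 (0.052) and Eif2ak3 (0.032) were once the trend with length and GC content had been removed. Xbp1, whose mRNA is spliced by IRE1, had 5.97 to 6.37 log2 CPM in CTRL (median 6.19) and 6.47, 6.28, 6.4, 6.42 and 6.26 in DPAn-6 mice. The groups overlapped, with a log2 fold change of 0.16 (standard error 0.070, adjusted p = 0.308 in edgeR, exact permutation p = 0.0202), and counts per gene do not separate spliced from unspliced Xbp1. Ddit3, which encodes the pro-apoptotic factor CHOP, had 3.80 to 4.31 in CTRL (median 4.07) and 4.10, 4.05, 3.85, 4.12 and 4.21 in DPAn-6, with −0.031 (standard error 0.098, edgeR adjusted p = 0.926). Its DPAn-6 values all lay within the CTRL range. Trib3, a target of CHOP, was the lowest member per length (0.439 CPM per kilobase of exon in CTRL, 8 to 26 counts per mouse), with 0.25 (standard error 0.29, edgeR adjusted p = 0.772).

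**Figure D4:**
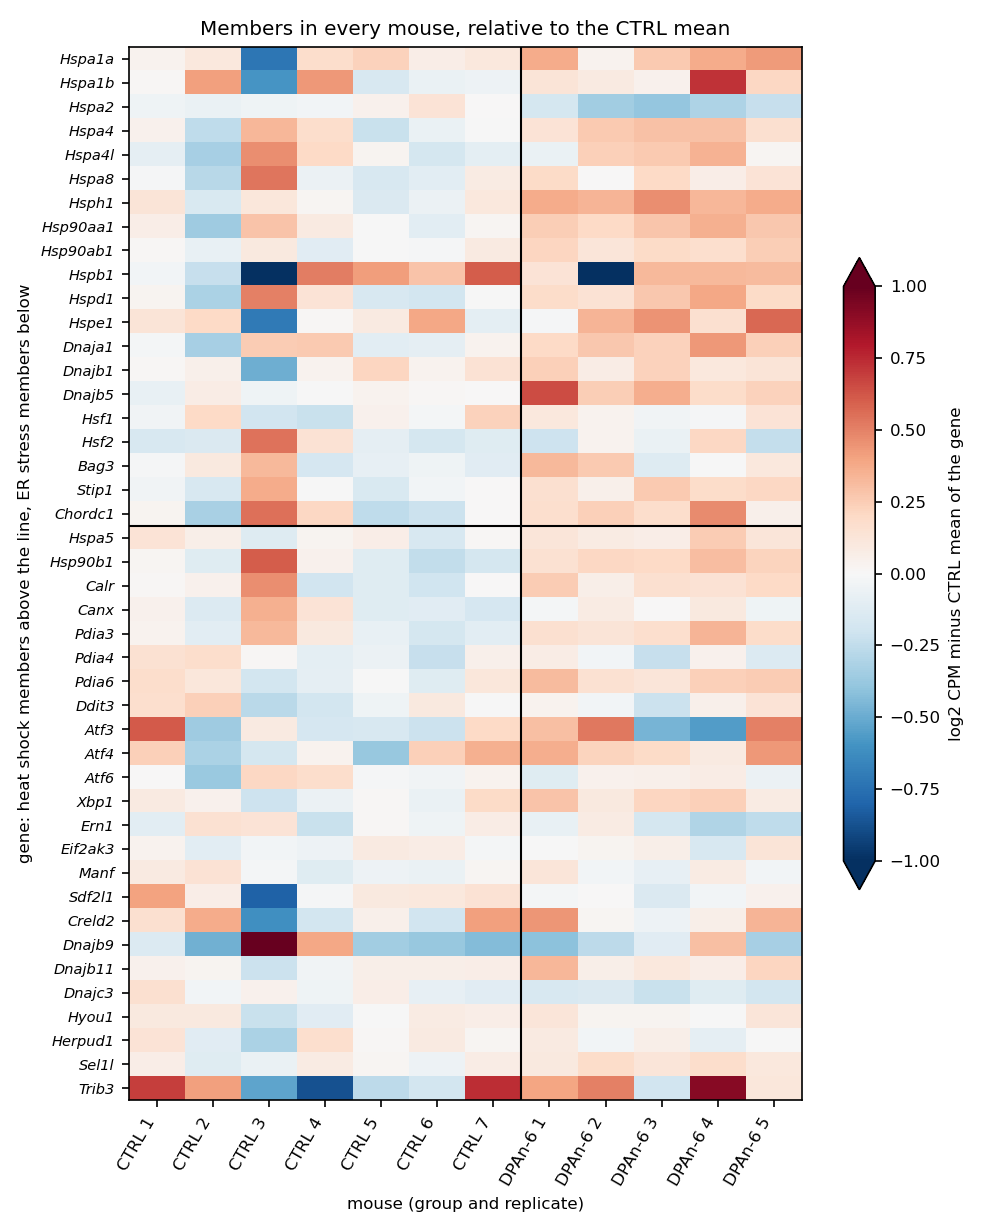
Log2 CPM of the 44 members (rows) in the 12 mice (columns), minus the CTRL mean of each gene, with colours ending at −1 and 1. The DPAn-6 columns are mostly above the CTRL mean in the heat shock rows other than Hspa2, and CTRL replicate 3 departs from the other CTRL mice in rows such as Hspb1, Dnajb9 and Hsp90b1.

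Atf3 and Atf4 are factors of the integrated stress response. They were the 2 of 44 members with an unadjusted p below 0.05 for a difference of the treatment effect between ages. This count was close to the share of all genes (4.26%). For Atf4, CTRL mice had 6.62 to 7.34 log2 CPM (median 7.02) and DPAn-6 mice 7.35, 7.22, 7.18, 7.08 and 7.42, with an overall log2 fold change of 0.22 (standard error 0.12, adjusted p = 0.444 in edgeR), and its mean difference was −0.16 at 12 months and 0.46 at 14 months. Atf3 was low, with 27 to 100 counts per mouse. At 12 months its 2 CTRL mice had 1.61 and 2.02 and its 2 DPAn-6 mice 0.85 and 0.95, while at 14 months 5 CTRL mice had 1.06 to 1.5 and 3 DPAn-6 mice 1.72 to 1.94. The groups did not overlap at either age and lay in opposite order, which 1.13% of all genes did. The interaction of treatment and age was 1.52 on the log2 scale for Atf3 (edgeR, unadjusted p = 0.000172, adjusted p = 0.321) and 0.57 for Atf4 (unadjusted p = 0.0204), so that 2 of 44 members had an unadjusted p below 0.05, beside 4.26% of all genes, and 0 an adjusted p below 0.05, beside 0.00637%. With 2 mice of 12 months in each group, the comparison at that age rests on 4 mice, and no exact test of it can reach 0.05.

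**Figure D5:**
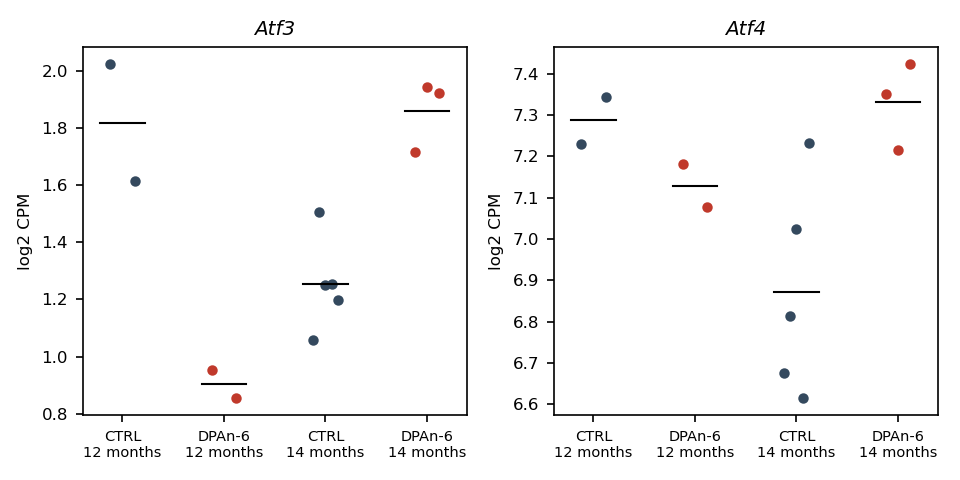
Log2 CPM (y axis) of Atf3 and Atf4 in each mouse by group and age, with the mean of each set as a line (2, 2, 5 and 3 mice from left to right). Atf3 is lower in DPAn-6 than in CTRL mice at 12 months and higher at 14 months. The interaction of treatment and age did not pass after adjustment (edgeR adjusted p = 0.321 for Atf3 and 0.905 for Atf4).

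Other genes of both pathways were read from lists of 50 heat shock and 56 ER stress genes. Of 49 other heat shock genes tested, 35 were positive, with a median of 0.11, and 10 were higher and 1 lower (Serpinh1) at an unadjusted p below 0.05, beside 5.51% and 9.02% of all genes, but 0 at an adjusted p. Without CTRL replicate 3 these 11 became 20 (beside 23.1% of all genes). There Cct6a, Cct8, Tcp1 and Dnajc7 rose and Unc45a fell after adjustment (10.2% of the list, beside 6.1% of all genes). The count was 6 among 14-month mice (beside 8.96%) and 0 with Ttr as covariate (beside 6.39%). The 3 lowest p belonged to Cct6a (0.22, edgeR adjusted p = 0.0837), Cct4 (0.26, adjusted p = 0.13) and Tcp1 (0.23, adjusted p = 0.135), all subunits of TRiC, the chaperonin that folds actin and tubulin. The groups did not overlap for Cct6a, with 6.67 to 6.97 log2 CPM in CTRL and 7.08 to 7.14 in DPAn-6 mice. All 8 subunits of TRiC were positive (0.14 to 0.26), 6 of them at an unadjusted p below 0.05, 7 without CTRL replicate 3, 4 among 14-month mice and 0 with Ttr as covariate, where the values were 0.035 to 0.16. This group was singled out after its values had been seen. Of 54 other ER stress genes tested, 29 were positive, with a median of 0.016. At an unadjusted p below 0.05, 2 were higher and 1 lower, beside 5.51% and 9.02% of all genes. These were Ufm1 (0.16, edgeR adjusted p = 0.325), Map3k5 (0.17, adjusted p = 0.314) and Creb3l2 (−0.19, adjusted p = 0.203), and none passed after adjustment. Without CTRL replicate 3 the count of 3 became 8 (14.8% of the list, beside 23.1% of all genes). There Sec62 rose and Cdk5rap3 fell after adjustment (3.7%, beside 6.1%). The count was 1 among 14-month mice (1.85%, beside 8.96%), with Ttr as covariate (1.85%, beside 6.39%) or with age as covariate.

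Within groups, some heat shock members varied together and others in opposite directions. Over the 190 pairs of heat shock members, the median correlation of TMM-scaled log2 CPM over the 12 mice, after centring each group, was 0.057 (quartiles −0.49 and 0.64). It was 0.090 over 276 ER stress pairs (−0.26 and 0.43) and −0.0041 over 307720 pairs among every 20th gene tested (−0.38 and 0.39). The heat shock pairs were thus spread more widely in both directions than the pairs among every 20th gene. These correlations share libraries, and CTRL replicate 3 weighs on them. The genes most like the mean of the heat shock members over the 12 mice, after the same centring, were Tcp1 (r = 0.941), Rxylt1 (0.936), Zfp619 (0.918), Tspan13 (0.918) and Eloc (0.91), and among members Dnaja1 (0.802) and Hsp90aa1 (0.741), which are part of that mean. Those most like Hspa5 were Ces5a (0.882), H2-T10 (0.866), Phkg1 (0.864), Kcnmb4os2 (0.862) and Ccndbp1 (0.836), and among members Pdia6 (0.69) and Pdia4 (0.639). They are given as a description of 12 mice.

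Markers of several cell types moved with the groups beside these results. All 12 microglial markers were negative, 4 of them at an adjusted p below 0.05, with a summed level of 1250 to 1870 CPM in CTRL and 863 to 1240 in DPAn-6 mice, and all 8 fibroblast markers were negative, 5 at an adjusted p below 0.05 (132 to 258 and 76.9 to 155 CPM). Of 10 oligodendrocyte markers 8 were positive, 6 at an unadjusted p below 0.05 (5220 to 6930 and 6160 to 7000 CPM). Choroid plexus markers, of which 6 of 10 were tested, were all negative and ranged from 14.1 to 1700 CPM in CTRL and from 9.75 to 26.9 in DPAn-6 mice. Of 12 neuronal markers 11 were positive, and 2 were higher and 1 lower at an unadjusted p below 0.05 (9590 to 13400 and 10700 to 11500 CPM), and of 10 astrocyte markers 9 were negative and 3 were lower at that level (3290 to 4470 and 3200 to 4150 CPM), with 0 of either called after adjustment. Without CTRL replicate 3, 7 microglial, 5 fibroblast, 2 oligodendrocyte, 2 neuronal and 2 astrocyte markers and Ttr had an adjusted p below 0.05. Of all genes 6.1% were called in that fit, against 1.55% with all mice. Of 10 endothelial markers 5 were positive and 5 negative (367 to 404 and 346 to 393 CPM). No marker listed was at 0 in all mice, the choroid plexus markers that were not tested included. The part of these shifts in the values of the members was not tested, except that with Ttr as covariate the median log2 fold change of the heat shock members was 0.13 with 0 called, beside 17 called of all genes.

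Further sets of genes that respond to time and state were read beside the members. Of 13 clock genes 8 were negative and 5 positive, with 3 lower and 1 higher at an adjusted p below 0.05, and Per2 fell by 0.68 and Arntl rose by 0.38 on the log2 scale. Of 14 activity-induced genes 4 were higher and 1 lower at an unadjusted p below 0.05, with Fosl2 called (0.44, adjusted p = 0.0464 in edgeR). The cold-induced genes Cirbp (−0.15) and Rbm3 (−0.24) did not pass the test. Without CTRL replicate 3, 7 clock genes, 5 activity-induced genes and Rbm3 had an adjusted p below 0.05. Of all genes 6.1% did in that fit, and 1.55% with all mice. No source used here gave the time of day of tissue collection, and the part of these shifts in the values of the members was not tested.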

How the data were processed

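The authors prepared KAPA mRNA libraries from cortex RNA, aligned the reads with STAR (2.5.3a in the submitters' processing notes) to GRCm38 and deposited raw counts per gene from STAR's own counting, with no normalization. The strand column and the read length were not given in the sources used here. Gene symbols, exons and positions were taken from GENCODE M21 (GRCm38), which matched 50339 of 50563 identifiers. The 12 columns were matched to mice by the sample descriptions.

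From the deposited counts, log2 CPM was computed with a pseudocount of 0.5 on library totals. Groups were compared with edgeR 4.0.16 in R 4.3.3 (TMM, filterByExpr by group, quasi-likelihood test) over 15688 genes, with Benjamini-Hochberg adjustment over all of them. An adjusted p without another tool named is from this fit. Since 1 library came from each mouse, the spread is that between mice. For single members, an exact permutation test, two-sided, took the absolute difference of mean log2 CPM over all 792 splits. The interaction of treatment and age was fitted in edgeR. The functions were tested on simulated counts. Alternatives were DESeq2 1.42.0, limma-voom (limma 3.58.1, the method of the study), no TMM, no filter, at least 1 CPM in 5 mice, age or Ttr as covariate, 14-month mice only, the replicate block, each mouse left out, TMM-scaled log2 CPM and a pseudocount of 2. The removal of the trend that a library showed with length and GC content, alone, without CTRL replicate 3 or with the block, was added after the data were seen. Shared words are the 50-base words of a gene's longest transcript that occur in transcripts of other genes. Sequences are RefSeq promoters of GRCm38.p6.

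The members and gene lists were chosen with earlier results of these data known. Values in every mouse were given for members with an unadjusted p below 0.05 and for Hsf1, Hspa1a, Hspa1b, Hspa5, Ddit3, Atf4 and Xbp1, for the other pathway lists the 3 genes of lowest p, and for likeness the 5 genes of highest r with the heat shock mean and with Hspa5.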

Additional observations from a re-analysis of the deposited data

Results flagged for a closer look

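Of 88 sets of member values, 1 for each of the 44 genes in each group, 13 held a mouse that lay far from the others of its group, where about 5% would by chance, and the sets share mice. CTRL replicate 3 was that mouse in 8 of the 13. It was the lowest CTRL mouse for Hspa1a (1.33 log2 CPM, others from 2.09), Hspb1 (−1.77), Dnajb1 (5.34, others from 5.84), Sdf2l1 (2.71) and Dnajb11 (5.34), and the highest for Stip1 (7.64, others up to 7.27), Hsp90b1 (8.69, others up to 8.12) and Calr (8.82). Both arms thus held low and high members in CTRL replicate 3, also beyond those flagged. Among CTRL mice it was the highest for Hsp90aa1 (7.23) and Bag3 (4.09) and the lowest for Pdia6 (6.11), Creld2 (2.82) and Hyou1 (6.755). This is the library with the largest trend on transcript length and GC content (0.346 on the log2 scale), and its part in these values was not tested gene by gene.

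DPAn-6 replicate 4, a 12-month-old mouse, was the highest of its group for Hspa1b (2.91 log2 CPM, others up to 2.40), for Hspa5 (7.94, others up to 7.80) and for Pdia3 (7.56, others up to 7.40). DPAn-6 replicate 2 was the lowest of its group for Hspb1 (−1.25 log2 CPM), a gene with 4 to 28 counts per mouse. CTRL replicate 2 was the lowest of its group for Atf6 (6.5, others from 6.83). For Atf3, the treatment effect differed between ages by 1.52 on the log2 scale (edgeR interaction, unadjusted p = 0.000172, adjusted p = 0.321 over all genes), with DPAn-6 mice below CTRL mice at 12 months and above them at 14 months.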

How the results depend on the processing

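The median log2 fold change kept its sign under all 24 alternatives, from 0.13 to 0.22 in the heat shock arm and from 0.017 to 0.099 in the ER stress arm. The counts of calls did not. Over all genes, 243 were called, 696 by DESeq2, 9 in the 14-month mice only, 17 with Ttr as covariate, 514 with the length and GC trend removed, 1551 with CTRL replicate 3 left out as well, and 64 (without DPAn-6 replicate 3) to 953 (without CTRL replicate 3) when 1 mouse was left out. Of the heat shock members 2 were called, 1 without a filter, 0 in the 14-month mice or with Ttr, 6 with the trend removed, 11 with CTRL replicate 3 left out as well and 0 to 9 with 1 mouse left out, and at an unadjusted p below 0.05 there were 6, with 3, 10, 13 and 4 to 12 in the 14-month mice, without the trend, without the trend and CTRL replicate 3, and with 1 mouse left out. Of the ER stress members 0 were called, 1 by DESeq2, 6 without the trend and CTRL replicate 3 and 0 to 3 with 1 mouse left out, and at an unadjusted p below 0.05 there were 3, 5 by DESeq2, 6 without TMM, 0 with Ttr, 7 without the trend, 8 without the trend and CTRL replicate 3 and 2 to 8 with 1 mouse left out. Over all genes, the share at an unadjusted p below 0.05 moved as well. It was 14.5% in the main fit, 8.96% in the 14-month mice, 14.8% without TMM and 6.39% with Ttr. Without the trend it was 19.5%, without the trend and CTRL replicate 3 26.4%, and without CTRL replicate 3 alone 23.1%. Fewer mice enter the fit of the 14-month mice, and the cause of the other shifts was not tested.

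Replicate numbers did not pair the mice, as deviations of CTRL and DPAn-6 mice of the same number correlated at −0.13 to 0.22. With the replicate block 79 genes were called over all, 0 of the heat shock members and 0 of the ER stress members. With the replicate block and the trend removed, 1 heat shock member was called, beside 1.14% of all genes. In that fit 5 ER stress members had an unadjusted p below 0.05, beside 17.9%.

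Some members changed sign under alternatives, most of them near 0, but also Dnajb9 (−0.34), Atf4 (0.22) and Hspa4l (0.12). Of these members Hspa4l alone was called under an alternative, with the trend removed, with or without CTRL replicate 3. Among 14-month mice alone, Hspa4l was −0.020, Ddit3 0.052, Eif2ak3 0.031, Manf 0.021, Sdf2l1 0.061 and Herpud1 0.021. Without TMM, Canx was 0.013, Eif2ak3 0.012, Manf 0.013 and Herpud1 0.00023. Without a filter, Canx was 0.0069, Eif2ak3 0.0070 and Manf 0.0078, and by limma-voom Canx was 0.00062. With Ttr as covariate, Ddit3 was 0.018, Atf3 −0.065, Atf4 −0.057 and Manf 0.026. With the trend removed, Canx was 0.015, Atf6 0.052 and Eif2ak3 0.032, and with CTRL replicate 3 left out as well Canx was 0.013, Atf6 0.052, Eif2ak3 0.048 and Manf 0.024. With the replicate block, Hspb1 was 0.11 and Herpud1 0.00041, and with the replicate block and the trend removed Hspb1 was 0.016, Hsf2 0.011, Canx 0.0017, Atf6 0.080 and Eif2ak3 0.034. With 1 mouse left out, the ranges were −0.21 to 0.12 for Hspb1, −0.021 to 0.060 for Hsf1, −0.16 to 0.020 for Hsf2, −0.038 to 0.064 for Canx, −0.065 to 0.022 for Ddit3, −0.016 to 0.23 for Atf3, −0.089 to 0.0095 for Atf6, −0.033 to 0.037 for Eif2ak3, −0.031 to 0.016 for Manf, −0.47 to 0.040 for Dnajb9 and −0.063 to 0.010 for Herpud1. Low counts limit Hspb1, Trib3 and Atf3, and near copies limit Hspa1a, Hspa1b, Hsp90aa1, Hspa8, Hspb1, Hspd1 and Dnaja1.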
